A study of Mus musculus with 5 samples.

Results

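Gja1, Gja4, Gja5, Gjb2, Gjb5, Gjb6 and Gjc1 are 7 mouse connexin genes, described here across 5 RNA sequencing libraries. They were found by their gene symbols in a table of 34970 genes, which held 19 genes of the connexin family in all. The set was chosen by the read counts of Gjb2, which earlier work on these libraries had put among the largest decreases from fibroblasts to the reprogrammed cells. The values of that comparison are therefore a description and support nothing. The series concerns the direct conversion of fibroblasts into macrophages. It holds 1 library each of PB, blood cells that the design text calls CD45-positive, of BM, bone marrow, of MCC, a myeloid-like cell complex, of MEF, mouse embryonic fibroblasts, and of iPSC, induced pluripotent stem cells. All 5 are labelled wild type; the labels name no age, strain or reprogramming factor. No group had a replicate, so every difference below compares single libraries, has no replicate check and carries no p-value.

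Connexins are membrane proteins that assemble into a ring-shaped hemichannel, and hemichannels of touching cells dock to form a gap junction through which ions and small metabolites pass. The family is named in groups: alpha (Gja), beta (Gjb), gamma (Gjc) and delta (Gjd). Gja1 encodes connexin 43, the most widespread connexin and the usual one of fibroblasts. Gjc1 encodes connexin 45, known from the heart conduction system and smooth muscle. Gja4 and Gja5 encode connexins 37 and 40, typical of arterial endothelium. Gjb2, Gjb5 and Gjb6 encode connexins 26, 31.1 and 30, known from epithelia, and Gjb2 and Gjb6 are also the connexins of the supporting cells of the inner ear.

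The libraries held between 30078366 and 47557598 counts, and levels are given as CPM, the usual unit of reads relative to the scaled library size. Intervals after a fold are 95% intervals for counting error alone. A gene with 0 reads could have stood at up to 0.0574 to 0.100 CPM, the level of 3 reads, depending on the library. Markers of the labelled cells were present. Of 12 macrophage markers, 12 reached 5 CPM in MCC and in BM, 7 in PB, 0 in MEF and 1 in iPSC. Of 12 fibroblast markers, 12 reached 5 CPM in both MCC and MEF, 8 in iPSC, 4 in BM and 2 in PB, so MCC carried both sets of markers. In such bulk libraries, fewer cells of a type and less RNA per cell cannot be told apart. PB carries a library code far from the other 4, so a batch and PB cannot be told apart either.

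The upstream sequences of 3 members show the starts of genes with many and with almost no reads. Each is the 250 bases before the RefSeq start (build GRCm38.p6, which is mm10), written 5′ to 3′ on the strand of the gene. Gja1 is shown as the member with the most reads in MCC, MEF and iPSC, and Gjb2 and Gjb6 as neighbours on chromosome 14 of which Gjb2 alone had more than 1 read in any library. Capitals mark the AP-1 site in Gja1 and the GC boxes in Gjb2.
Gja1, chr10:56377050-56377299, plus strand: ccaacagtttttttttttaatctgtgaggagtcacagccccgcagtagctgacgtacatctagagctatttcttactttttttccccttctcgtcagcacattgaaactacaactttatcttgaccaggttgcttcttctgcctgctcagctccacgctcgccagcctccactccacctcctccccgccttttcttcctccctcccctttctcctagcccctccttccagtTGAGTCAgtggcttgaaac
Gjb2, chr14:57104703-57104952, minus strand: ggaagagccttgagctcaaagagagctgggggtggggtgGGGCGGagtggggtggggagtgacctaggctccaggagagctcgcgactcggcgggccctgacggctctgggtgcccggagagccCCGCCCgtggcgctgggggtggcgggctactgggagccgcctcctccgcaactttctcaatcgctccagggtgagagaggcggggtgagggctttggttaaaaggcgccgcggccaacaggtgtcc
Gjb6, chr14:57133612-57133861, minus strand: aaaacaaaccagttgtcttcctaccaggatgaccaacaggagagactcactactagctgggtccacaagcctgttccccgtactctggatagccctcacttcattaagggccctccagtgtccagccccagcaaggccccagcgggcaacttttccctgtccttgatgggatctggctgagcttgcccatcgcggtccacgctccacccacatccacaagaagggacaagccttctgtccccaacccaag
A GC box was searched for as GGGCGG, on both strands. In the same way a CCAAT box was the letters CCAAT, an AP-1 site was read as TGANTCA, and a TATA box was TATAAA. No hit in these windows overlapped another motif. Over 32851 promoter windows of the same length, 32.7% held a GC box, 33.8% a CCAAT box, 6.75% an AP-1 site and 12.4% a TATA box. The Gja1 window held 1 AP-1 site, starting 19 bases before the gene, and none of the other motifs. The Gjb2 window held 2 GC boxes, starting 211 and 126 bases before the gene, with 69.2% G and C and 18 CpG pairs, against medians of 52.4% and 6 over all windows. The Gjb6 window held none of the searched letters, with 56.8% G and C and 5 CpG pairs. Windows of Gja4, Gja5 and Gjb5 were also matched. The Gja4 and Gja5 windows held 1 GC box each, starting 79 and 17 bases before the RefSeq start. The Gjb5 window held a CCAAT box at 70 bases and a TATA box at 243 bases. The Gja5 window (chromosome 3, 97032152 to 97032401) lies inside the gene span given for Gja5 below, which comes from another annotation. Gjc1 was not matched. These matches describe letters and do not show binding.

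Gja1 (mm10 chromosome 10, 56377330 to 56402513) was the member with the most reads in MCC, MEF and iPSC. Its level was 159 CPM in iPSC, 104 CPM in MCC, 64.7 CPM in MEF and 7.81 CPM in BM. In PB it had 2 reads, or 0.0670 CPM. The cultured populations thus stood well above marrow, and blood held only a trace. Gja1 was 1.61-fold (1.54 to 1.69) higher in MCC than in MEF, the only member with a higher level in MCC of the 3 that reached 5 CPM in either library. It was 1.53-fold (1.47 to 1.58) lower in MCC than in iPSC. Both gaps exceed counting error but lie far below the 4-fold rule used here. Against BM, Gja1 was 13.4-fold (11.9 to 15.02) higher in MCC, and against the 2 reads of PB 1558-fold (431 to 12868) higher. Of the 12 fibroblast markers, 10 had a higher level in BM than in PB and 2 a lower one. The highest in BM were Fn1 at 1132 CPM and Col1a2 at 47.0 CPM, against 678 and 1.77 CPM in PB. Thy1 went the other way, at 166 CPM in PB and 16.4 CPM in BM, whereas Dcn (1.99 CPM), Lum (0.540 CPM) and Pdgfra (1.96 CPM) were low in BM. Whether stromal cells carried the Gja1 reads of BM was not tested.

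Gjc1 (chromosome 11, 102799579 to 102819700) followed Gja1 among the members in MCC, MEF and iPSC. Its level was 39.5 CPM in iPSC, 32.1 CPM in MEF and 13.6 CPM in MCC, with 10 reads (0.245 CPM) in BM and 0 reads in PB. The 3 cultured libraries were again the high ones, but here MCC was the lowest of them. Gjc1 was 2.36-fold (2.14 to 2.60) lower in MCC than in MEF and 2.90-fold (2.64 to 3.18) lower than in iPSC, while iPSC and MEF differed by 1.23-fold (1.15 to 1.32). Gja1 and Gjc1 therefore moved apart between MEF and MCC: there were 2.02 reads of Gja1 for each read of Gjc1 in MEF and 7.65 in MCC. Of 12 smooth muscle and mural markers 10 reached 5 CPM, of which 8 were at least 4-fold lower in MCC, 0 higher and 2 neither. Over all genes at 5 CPM, 2.71% were lower to that degree. The 12 summed to 6093 CPM in MEF and 331 CPM in MCC. In iPSC, where Gjc1 was highest, they summed to 367 CPM. Acta2 (smooth muscle actin) made up most of the MEF sum, at 5086 CPM in MEF against 162 CPM in MCC. Pdgfrb was at 479 CPM in MEF and 99.8 CPM in MCC. Notch3 was at 7.77 CPM in MEF and 10.8 CPM in MCC, the only one of the 12 with a higher level in MCC. The part of such cells in the Gjc1 difference was not tested.

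**Figure D1:**
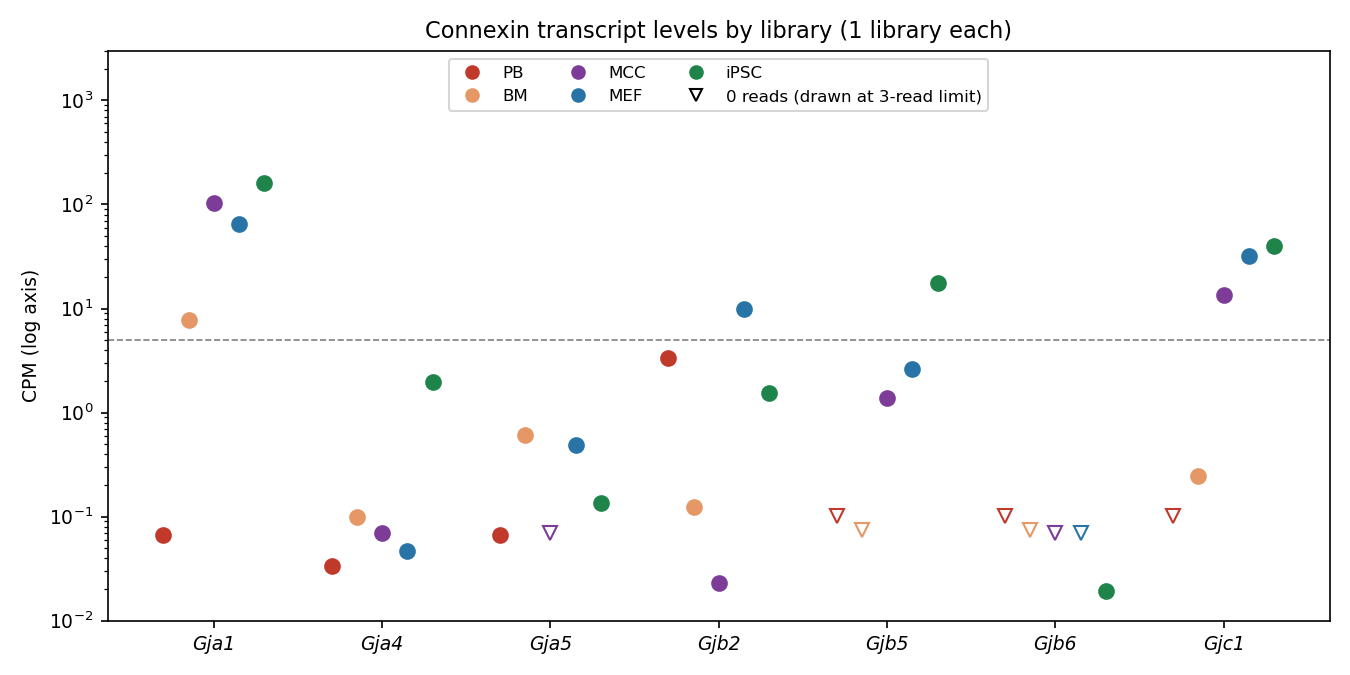
Levels of the 7 connexins in the 5 libraries, as CPM on a log axis; each filled point is 1 library, and an open triangle marks 0 reads, drawn at the level of 3 reads. Gja1 and Gjc1 are above the dashed line at 5 CPM in MCC, MEF and iPSC, whereas Gjb2 is above it only in MEF and Gjb5 only in iPSC.

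Gjb2 (chromosome 14, 57098600 to 57104702) had its highest level in MEF. There were 432 reads in MEF (9.99 CPM), 99 in PB (3.31 CPM), 80 in iPSC (1.53 CPM), 5 in BM (0.123 CPM) and 1 in MCC (0.0231 CPM). MCC was thus the lowest of the 5 libraries, and its Gjb2 was at or near the limit of detection while its Gja1 was above that of MEF. The ratio that led to the choice of these genes was 432-fold (77.1 to 17086) lower in MCC than in MEF, and the width of its interval comes from the single read. Gjb2 was also 66.1-fold (11.5 to 2644) lower in MCC than in iPSC and 143-fold (25.1 to 5713) lower than in PB, both of which rest on the same read. The gap between MCC and BM was within counting error, at 5.30-fold (0.593 to 251) lower. In the libraries other than MCC, Gjb2 was 6.53-fold (5.13 to 8.39) lower in iPSC than in MEF and 3.01-fold (2.42 to 3.79) higher in MEF than in PB. Both ratios rest on the MEF count that entered the choice of these genes, so they too are a description.

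Of 15 epithelial and keratinocyte markers, 11 had a lower level in MCC than in MEF, as did Gjb2, 3 a higher one, and 1 had no reads in either. In all, 3 reached 5 CPM in MEF and 0 in MCC, with sums of 36.8 and 10.9 CPM. Sfn (stratifin) was at 14.2 CPM in MEF and 2.52 CPM in MCC, and Krt19 at 13.3 and 2.25 CPM. Krt18, chosen after its values were seen, had 258 reads in MEF and 1 in MCC, a drop like that of Gjb2. The other libraries differed: Krt18 had 55670 reads in iPSC, 80 in BM and 25 in PB, against 80, 5 and 99 of Gjb2. In iPSC the 15 markers summed to 4406 CPM, while Gjb2 stood at 1.53 CPM. Krt8, also chosen after its values were seen, had 47 reads in MEF and 0 in MCC. Krt5, Epcam and Grhl2 had few reads in both, with 7, 10 and 1 in MEF and 1, 4 and 0 in MCC. The 3 that went the other way were Trp63, a regulator of basal epithelia, with 1 read in MEF and 158 in MCC, Perp with 22 and 75, and Krt15 with 0 and 8. Whether a minor cell type of the MEF culture carried the Gjb2 reads was not tested.

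Blood and marrow differed in which connexin they held. From BM to PB, Gjb2 was 27.002-fold (11.2 to 84.99) higher, whereas Gja1 was 117-fold (32.0 to 967) lower, on 2 reads in PB. In PB the epithelial markers summed to 40.1 CPM, of which Sfn made up 34.4 CPM and Epcam 2.54 CPM. Krt17, Trp63 and Grhl2 had 0 reads, and Krt5 and Krt14 stood at 0.0335 CPM each. Of the fibroblast markers, Fn1 (678 CPM) and Thy1 (166 CPM) reached 5 CPM in PB, and the other 10 were between 0 and 1.77 CPM. Which cells held the 99 Gjb2 reads was not tested.

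Gjb5 (chromosome 4, 127354809 to 127358181) had its highest level in iPSC. It stood at 17.7 CPM in iPSC, 2.61 CPM in MEF and 1.39 CPM in MCC, with 0 reads in BM and PB. Gjb5 was 12.8-fold (9.83 to 16.9) lower in MCC than in iPSC and 6.79-fold (5.58 to 8.33) higher in iPSC than in MEF. MCC and MEF were closer, at 1.88-fold (1.36 to 2.62) lower in MCC. Against the floor of 3 reads, Gjb5 in MCC was at least 18.9-fold higher than in BM and at least 13.8-fold higher than in PB.

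Gjb5 and Gja4 both lie on the minus strand of chromosome 4, and both had their highest level in iPSC. Gjb5 followed the order iPSC, MEF, MCC, with every gap larger than counting error, whereas Gja4 had too few reads outside iPSC for an order.

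The iPSC library also carried epithelial and trophoblast markers beside its 12 of 12 pluripotency markers. Of 15 epithelial markers 11 reached 5 CPM, among them Krt8 at 1266 CPM, Krt18 at 1065 CPM and Epcam at 179.6 CPM. Krt5 (0.153 CPM), Trp63 (0.363 CPM), Ovol1 (0.536 CPM) and Krt15 (0.842 CPM) did not. Of 9 trophoblast markers 7 reached 5 CPM, among them Cdx2 at 35.2 CPM and Hand1 at 26.8 CPM, whereas Elf5 (0.421 CPM) and Plac1 (3.69 CPM) did not. The same lists reached 5 CPM for 0 of 15 and 0 of 9 genes in MCC. The part of differentiating cells in the Gjb5 level of iPSC was not tested.

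Gja3, Gjb2 and Gjb6 form a group of connexin genes on chromosome 14 that spans 99.2 kb. The gap between the Gjb2 and Gjb6 genes is 18.6 kb. The group had no common high library: Gjb2 was highest in MEF, Gja3, which encodes a lens connexin, had 42 reads (0.804 CPM) in iPSC and 0 elsewhere, and Gjb6 had 1 read in iPSC and 0 elsewhere. The protein-coding neighbours Zmym2 and Cryl1 were between 40.8 and 105 CPM and between 9.04 and 28.1 CPM in the 5 libraries. Cryl1 was higher in MCC (28.1 CPM) than in MEF (9.04 CPM), opposite to Gjb2.

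**Figure D2:**
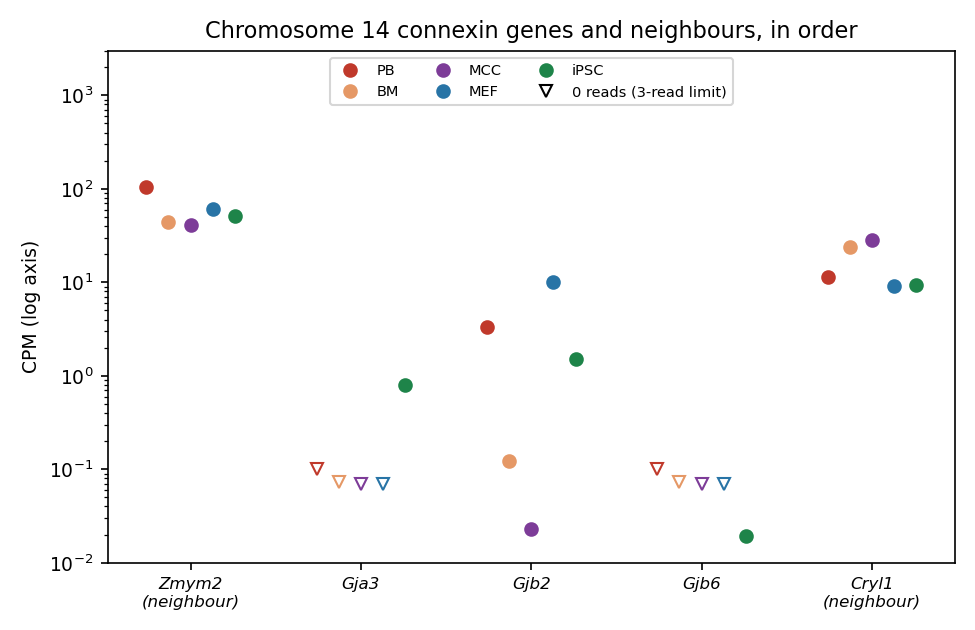
Levels of the chromosome 14 connexin genes, in chromosomal order, and of the nearest protein-coding gene on each side, as CPM on a log axis; points are single libraries and open triangles 0 reads, drawn at the level of 3 reads. Gjb2 has its highest point in MEF at 9.99 CPM, and the only filled point of Gjb6 is that of iPSC, at 0.0191 CPM.

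Gja4 and Gja5 stayed at trace levels in most libraries. Gja4 (chromosome 4, 127311421 to 127314039) had 103 reads in iPSC (1.97 CPM), 4 in BM, 3 in MCC, 1 in PB and 2 in MEF, so that iPSC alone stood apart. It was 42.6-fold (11.5 to 357) higher in iPSC than in MEF and 28.4-fold (9.44 to 140) lower in MCC than in iPSC. Gja5 (chromosome 3, 96904693 to 97077416) had 25 reads in BM (0.614 CPM), 21 in MEF (0.486 CPM), 7 in iPSC, 2 in PB and 0 in MCC. It was at least 8.84-fold lower in MCC than in BM and at least 6.99-fold lower than in MEF, all at levels under 1 CPM. Of its exon bases 2.87% overlap exons of Gpr89 on the opposite strand, and 15.3% of its 50-base stretches occur in transcripts of other genes, so its few reads are uncertain. For the other 6 members this share was at most 0.115%, and no connexin shared a stretch with another connexin.

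Endothelial genes, which Gja4 and Gja5 usually accompany, were few in the cultured libraries. Of 14 endothelial markers, 7 reached 5 CPM in BM, 3 in iPSC, 2 in MCC, 2 in PB and 1 in MEF. In MCC the highest were Egfl7 at 8.45 CPM and Tek at 7.41 CPM, Tie1, Emcn, Sox17 and Cldn5 had 0 reads, and Cdh5 (VE-cadherin) stood at 0.255 CPM. In BM, Cdh5 and Tie1 were at 6.87 and 7.73 CPM beside the 25 Gja5 reads. Tek, Cldn5, Sox18, Emcn and Sox17 were low there, between 0.123 and 0.761 CPM. In MEF, beside 21 Gja5 reads, Cdh5 and Emcn were at 1.20 CPM each and Tie1 at 0.116 CPM. The part of endothelial cells in the Gja5 reads was not tested.

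Gjb6 (chromosome 14, 57123303 to 57133611) was in effect not detected. It had 1 read in iPSC and 0 in PB, BM, MCC and MEF, which allows up to 0.0694 CPM in MCC and in MEF. No fold was formed for it.

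The make-up of the reads of the 7 connexins differed between MCC and MEF, while their sum was close and its direction depended on the genes and lengths used. The members summed to 110.0 CPM in MEF and 119 CPM in MCC, 1.09-fold (1.04 to 1.13) higher in MCC. Over all 19 connexins the direction was the opposite, 1.04-fold lower in MCC with a counting interval that reaches 1. Per kilobase the members also summed lower in MCC, to 39.5 against 40.05 CPM in MEF over coding transcripts and 13.8 against 18.5 CPM over all exons. The sums were 220.1 CPM in iPSC, 8.89 CPM in BM and 3.48 CPM in PB. Gja1 took 87.3% (86.4 to 88.2, Clopper-Pearson) of the 5160 member reads of MCC and 58.9% (57.4 to 60.3) of the 4756 of MEF. Gjc1 took 11.4% (10.6 to 12.3) in MCC and 29.2% (27.9 to 30.5) in MEF. Gjb2 took 9.08% (8.28 to 9.94) in MEF and 0.0194% in MCC, where it had 1 read. Lower Gjc1 and Gjb2 levels in MCC thus stood beside a higher Gja1 level.

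The other libraries had make-ups of their own. In iPSC, Gja1 took 72.3% (71.5 to 73.2) of 11504 member reads, Gjc1 17.9% (17.2 to 18.6) and Gjb5 8.06% (7.57 to 8.57). In BM, Gja1 took 87.8% (84.0 to 91.0) of 362 reads. The members held 61.9% of all connexin reads in BM and 63.3% in iPSC, and of all 19 genes' reads Gja1 took 54.4% in BM and 45.8% in iPSC. In MCC and MEF the members held 96.8% and 85.8%, and Gja1 84.6% and 50.5%. In PB, Gjb2 took 95.2% (89.1 to 98.4) of only 104 reads. Of the 7 members, 5 reached 1 CPM in iPSC, 4 in MEF, 3 in MCC, 1 in BM and 1 in PB.

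**Figure D3:**
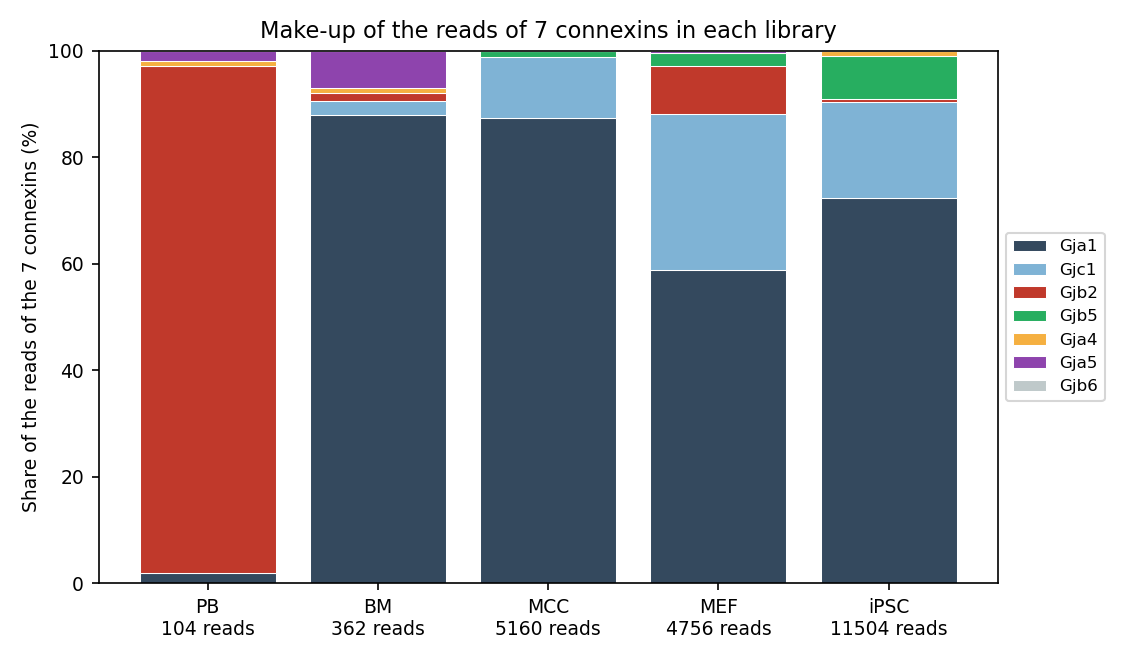
Share of each of the 7 connexins in their summed reads, in percent, with the number of these reads under each bar; each bar is 1 library. Gja1 fills 87.3% of the MCC bar and 58.9% of the MEF bar, and Gjb2 fills 95.2% of the PB bar.

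Long genes collect more reads, so the shares and read ratios above do not rank the genes by transcript number, and levels per kilobase are given here. Per kilobase of the longest coding transcript, Gja1 was at 32.8 CPM in MCC, 20.3 in MEF and 50.04 in iPSC. On the same scale Gjc1 was at 5.89, 13.9 and 17.1, Gjb5 at 0.807, 1.52 and 10.3, and Gjb2 at 0.00962, 4.15 and 0.636. Gja1 thus led the members in all 3 cultured libraries on this scale. All annotated exons of Gja1 together hold 10257 bases, against 3182 for its longest coding transcript. Per kilobase of all annotated exons, Gja1 stood at 10.2, 6.31 and 15.5. It then still led the members in MCC and iPSC but was close to and below Gjc1 in MEF (6.42).

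A member was counted as different where its CPM differed at least 4-fold with at least 5 CPM in the higher library. From MEF to MCC, 3 of the 7 members reached 5 CPM and 1, Gjb2, was lower and 0 were higher. Of 11720 genes tested, 10.8% passed in either direction, 8.05% higher and 2.71% lower in MCC. This comparison chose the members, so nothing is read from the count. Against iPSC, 3 members reached 5 CPM and 1, Gjb5, was lower in MCC, beside 21.1% of 12442 genes in either direction and 9.77% lower. Against BM, 2 members reached 5 CPM, Gja1 and Gjc1, and both were higher in MCC, beside 29.1% of 12427 genes in either direction and 15.6% higher. Gjc1 was 55.5-fold (29.98 to 116) higher. Against PB the same 2 members reached 5 CPM and were higher, beside 36.9% of 12545 genes in either direction and 21.5% higher, Gjc1 by at least 136-fold. Between iPSC and MEF, 4 members reached 5 CPM. Gjb5 was higher and Gjb2 lower in iPSC, beside 8.83% of 11931 genes higher, 6.37% lower and 15.2% in either direction. The Gjb2 call uses the MEF count that entered the choice, so nothing is read from it. A member at 5 CPM in only 1 library of a pair could be called in 1 direction alone. This held for Gja1 and Gjc1 against PB, for Gjc1 against BM, and for every Gjb5 and Gjb2 call. Nothing is read from the direction of those calls.

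These comparisons share libraries: MCC enters 4 of them, iPSC 2 and MEF 2, so a feature of any of these libraries enters several comparisons. With so few members at 5 CPM, the counts say little about the members as a set. The split of all genes depends on scaling in 4 of the 5 comparisons. Against iPSC, 1410 genes were higher and 1215 lower in MCC, but 1161 and 1613 with total counts only. Between iPSC and MEF, 1054 were higher and 760 lower in iPSC, and 1358 and 594 with total counts only. Against BM, 1943 were higher and 1678 lower in MCC, but 1777 and 1819 with total counts only. Against PB, 2699 were higher and 1927 lower, but 2264 and 2328 with DESeq2 size factors. No member ratio changed direction under any scaling tried.

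**Figure D4:**
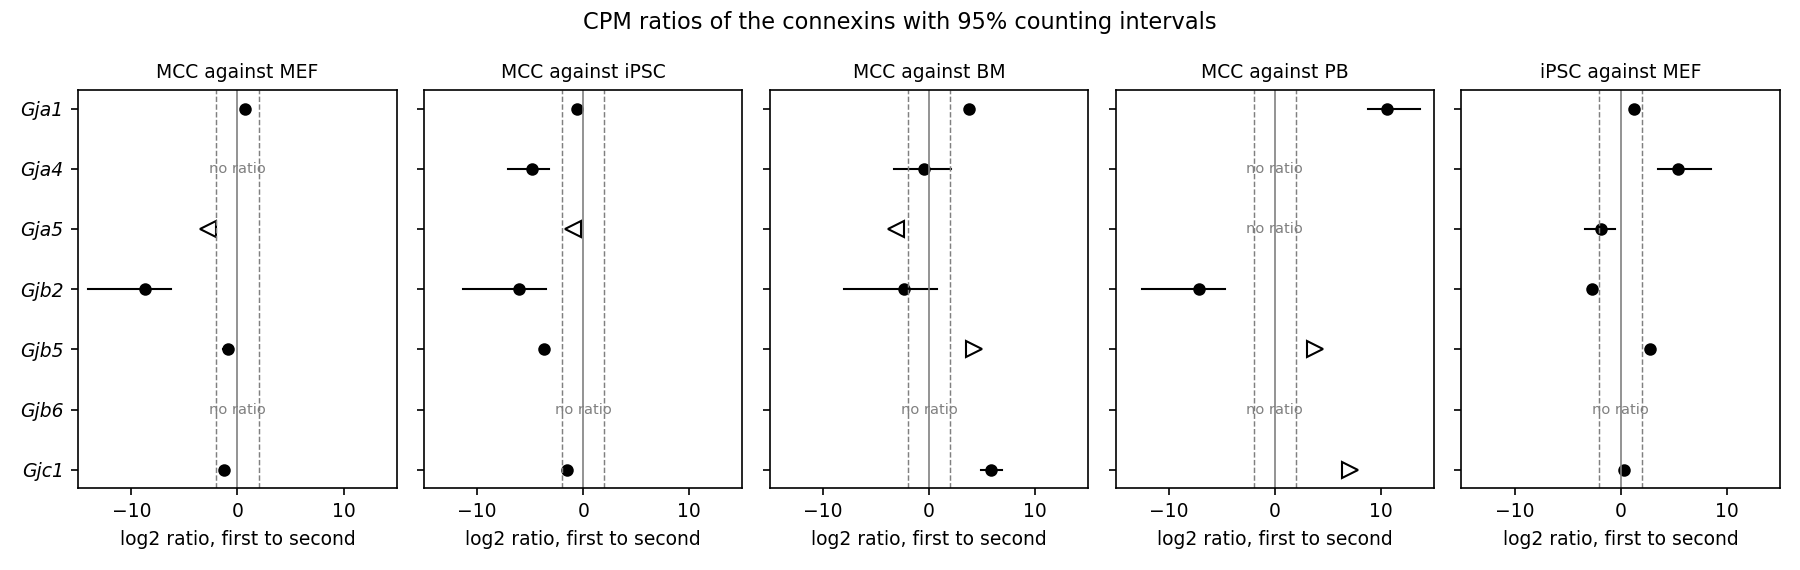
CPM ratios of the 7 connexins in 5 comparisons, as log2 of the first library over the second; points are ratios, lines 95% counting intervals, open triangles lower bounds against 3 reads, and dashed lines mark 4-fold. Gja1 and Gjc1 lie to the right of the dashed line against BM and PB, and Gjb2 lies furthest to the left from MEF to MCC.

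Of 27 genes for proteins that bind, carry or modify connexins, 24 reached 5 CPM in MCC or MEF. In MCC 1 of them was higher by the 4-fold rule, 1 lower and 22 neither, beside the 8.05% higher and 2.71% lower of all genes, with a median log2 ratio of −0.63 against −0.01 over all genes tested. Ccn3, a secreted matrix-associated protein that binds connexin 43, was at 27.8 CPM in MEF, 258 CPM in MCC, 3.12 CPM in iPSC, 0.167 CPM in PB and 0.0245 CPM in BM. It was 9.27-fold (8.74 to 9.85) higher in MCC than in MEF, the same direction as Gja1. Cdh2 (N-cadherin), the adhesion molecule of fibroblast contacts, was 4.28-fold (3.98 to 4.60) lower in MCC, at 21.2 against 90.9 CPM. The partners with the highest CPM, not adjusted for length, were Tubb5, a tubulin, at 1942 CPM in MEF and 1216 CPM in MCC, and Nedd4, a ubiquitin ligase that acts in connexin 43 turnover, at 1668 and 1087 CPM. Tjp1, the scaffold protein ZO-1 that binds the tail of connexin 43, was named after its values were seen and stood at 82.2 CPM in MEF against 35.9 CPM. Tjp3, also named after its values were seen, was below 5 CPM in MCC and MEF and so could not be called. It had 162 reads in MCC and 1 in MEF, 162-fold (28.7 to 6444) higher in MCC. Of the 24 partner genes 18 were lower in MCC by any amount and 6 higher, beside 5928 of 11720 genes lower.

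Of 31 adherens, tight and desmosome junction genes 14 reached 5 CPM; 3 were lower by the 4-fold rule, 0 higher and 11 neither, with a median log2 ratio of −1.12, beside 2.71% of all genes lower by that rule. Cdh3 (P-cadherin) was 5.55-fold (5.06 to 6.08) lower, the desmosomal gene Pkp2 6.36-fold (5.51 to 7.37) lower and the junctional adhesion gene F11r 5.94-fold (4.89 to 7.26) lower. Of these 14 genes 13 were lower in MCC by any amount, beside 5928 of the 11720 genes tested, as was Gjc1, whereas Gja1 was higher.

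The setting of the connexins in iPSC and marrow was different again. Between iPSC and MEF, 25 of the 31 junction genes reached 5 CPM, with 12 higher in iPSC, 1 lower and a median log2 ratio of 1.76. Over all genes tested, 8.83% were higher and 6.37% lower in iPSC, with a median of −0.11. Named after their values were seen, Cdh1 (E-cadherin) was at 372 CPM in iPSC and 0.208 CPM in MEF, and Dsp (desmoplakin) at 261 and 0.462 CPM. The iPSC library thus held these epithelial junction genes beside Gjb5. Against BM, 9 of the 26 partner genes at 5 CPM were higher in MCC and 2 lower, and of 15 junction genes 6 were higher and 3 lower. Over all genes tested, 15.6% were higher and 13.5% lower. The median log2 ratios of the 2 lists were 1.04 and 1.49, against 0.11 over all genes tested.

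**Figure D5:**
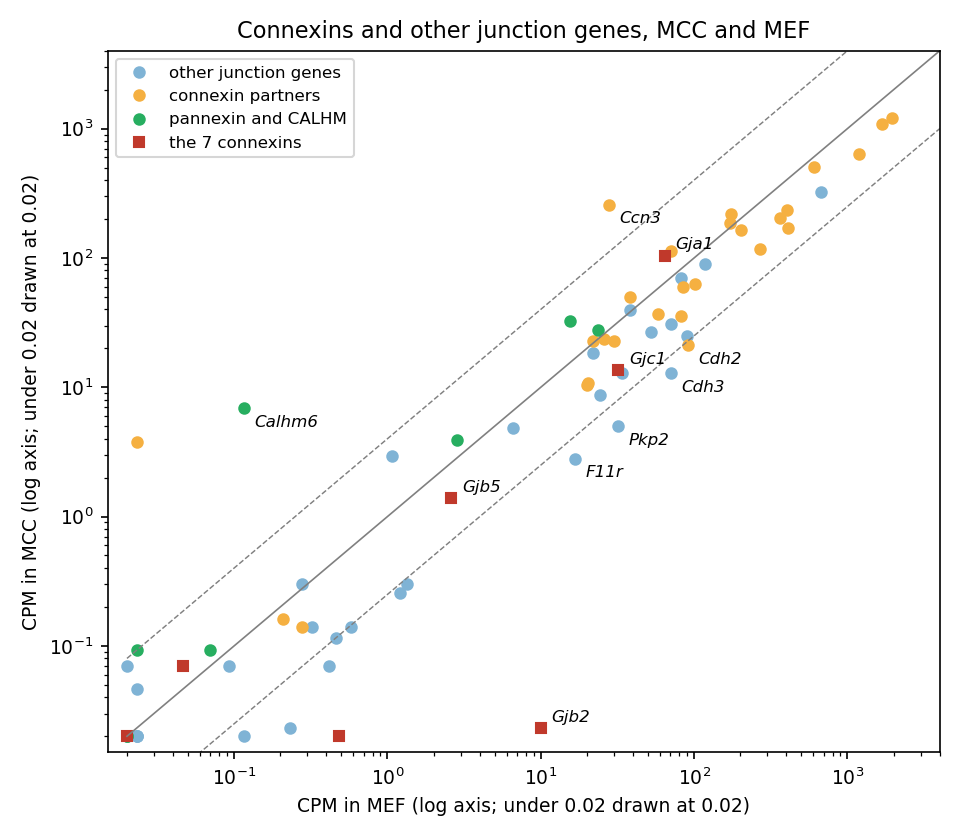
Levels in MEF (horizontal) and MCC (vertical) as CPM on log axes for the 7 connexins (squares) and for partner, junction and large-pore channel genes (circles); the solid line marks equal levels and the dashed lines 4-fold. Gjb2 lies far below the lower dashed line at 9.99 CPM in MEF, and Gja1 lies just above the line of equal levels. Ccn3, Calhm6 and Tjp3 are among the genes above the upper dashed line.

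The genes whose pattern over the 5 libraries was most like that of Gja1 or Gjb2 were found among 12945 genes, each reaching 5 CPM somewhere. Likeness was the root mean square difference of mean-centred log2(CPM + 1) values, over 5 points only. For Gja1 the closest were Ccnd1 (cyclin D1, 0.42), Mt1 (a metallothionein, 0.54), Cpt1c (0.62), Hyal2 (a hyaluronidase, 0.67) and Dst (dystonin, 0.71). Ccnd1 stood at 294 CPM in iPSC, 103 in MCC, 91.4 in MEF, 10.5 in BM and 1.44 in PB. For Gjb2 the closest were Klf12 (0.43), Nipal1 (0.50), Filip1l (0.51), Ramp3 (0.57) and Tes (0.63). Adding 1 CPM flattens differences at low levels, so genes without the near absence of Gjb2 in MCC can score as alike. Filip1l stood at 136 CPM in MEF and 26.1 in MCC, and Tes at 155 and 35.9. The Gjb2 pattern also holds the MEF and MCC counts that entered the choice, so its list is a description. Nipal1, which encodes a magnesium transporter-like protein, was like Gjb2 high in PB and MEF: it stood at 8.30 CPM in PB, 8.16 in MEF, 3.54 in iPSC, 0.440 in MCC and 0.147 in BM.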

How the data were processed

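PolyA RNA from 5 mouse libraries, extracted with Trizol per the labels' protocols, was sequenced. The deposited values are whole-number read counts per gene symbol; the authors' tools were STAR and featureCounts and the build mm10, per the submitters' processing notes. No label or header names their versions, annotation, strand setting or filters. All 5 columns were matched to libraries by their codes.

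For CPM, library sizes were multiplied by TMM factors over all 5 libraries (edgeR 4.0.16, R 4.3.3). Ratios carry exact 95% conditional binomial intervals, in Python 3.11.15 with scipy 1.17.1. Reads carry no stated molecular identifiers, so intervals cover counting error only. For calls, counts under 3 were set to 3. Ratios with 1 to 3 reads on a side carry their interval, and 0 reads give a bound. Positions, lengths and 50-base stretches came from GENCODE M21. Promoters came from RefSeq; protein sequences were not analysed here.

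The members and the 14 gene lists were chosen with earlier results of these data known. Some connexins and neighbouring genes outside the members are not reported here. Genes named were the members, list genes past the rule from MEF to MCC, the 2 partner and marker genes highest in each library and the 5 closest patterns; all other genes, among them several markers, cluster neighbours and channels, were named after their values were seen. On simulated counts for each comparison the calculation was tested and returned the known answers. The planted changes exceeded the 4-fold rule and lay in genes at 20 CPM or more. Recovery of changes at lower levels was not tested.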

Additional observations from a re-analysis of the deposited data

How the results depend on the processing

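With 1 library per group, replicates could not be left out. No paired analysis was possible because each group has 1 library. Scaling with DESeq2 1.42.0 size factors, with total counts only, or without the 10 most abundant genes of each library, mitochondrial genes and haemoglobins changed no count of members; of 63 member ratios so recomputed 56 stayed within their counting interval, 0 changed direction, and the largest moved 1.31-fold. Total counts only moved the median log2 ratio of all genes from 0.14 to −0.30 for MCC against iPSC, from −0.11 to 0.27 for iPSC against MEF and from 0.11 to −0.04 for MCC against BM, and for MCC against PB from 0.38 to 0.24. DESeq2 size factors brought the latter 2 medians to 0.00 and 0.07.

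The level minimum mattered more, because few connexins are abundant. With no minimum the members called were 2 (MEF), 3 (iPSC), 4 (BM) and 4 (PB) for MCC, and 3 for iPSC against MEF. Over all genes, 1851 were then higher and 885 lower in MCC against MEF, and 2451 and 3242 against iPSC. Against BM these were 3368 and 3666, against PB 4219 and 4869, and for iPSC against MEF 3136 and 1445. With 1 CPM the members called were 1 against MEF, 3 against iPSC, 3 against BM, 4 against PB and 3 for iPSC against MEF. Over all genes, 1909 were then higher and 2165 lower against iPSC, and 3648 and 3298 against PB. Against MEF these were 1353 and 584, against BM 2704 and 2521, and for iPSC against MEF 2034 and 1071. With 20 CPM the members called were 0 against MEF, 0 against iPSC, 1 against BM, 1 against PB and 0 for iPSC against MEF. Over all genes, 589 were then higher and 162 lower against MEF, 978 and 613 against iPSC, and 1243 and 1186 against BM. Against PB these were 1798 and 1317, and for iPSC against MEF 464 and 492. The number of genes tested changes with the minimum, so these counts give no share and nothing is read from them about the members. At 2-fold the members called were 2 against MEF and 2 against iPSC, with Gjc1 added. They were 2 against BM, 2 against PB and, with Gja1 added, 3 for iPSC against MEF. Of the same 11720 genes, 1773 were then higher and 1187 lower against MEF, and of the same 12442 genes 3024 and 2389 against iPSC. Against BM these were 3636 and 3088 of 12427 genes, and against PB 4839 and 3256 of 12545. For iPSC against MEF they were 1962 and 1973 of 11931. The partner, junction and large-pore channel genes called from MEF to MCC rose from 6 to 11 with no minimum and to 15 at 2-fold. The calls over all genes rose too, from 943 higher and 318 lower to 1851 and 885, and to 1773 and 1187. Of the 19 connexins, 1 reached 1 CPM in PB and 5 in MCC, against 0 and 2 at 5 CPM. The coding transcript length was chosen after seeing the data.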

Other observations

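Of 8 large-pore channel genes other than connexins, Panx1 and Calhm2 were above 5 CPM in all 5 libraries. Panx1, which encodes pannexin 1, an ATP-releasing channel that does not form classical gap junctions, stood at 33.8 CPM in PB, 27.8 in MCC, 23.6 in MEF, 21.9 in BM and 17.1 in iPSC. Its whole range was thus narrower, in fold, than that of any connexin that reached 5 CPM in some library. Calhm2, a calcium homeostasis modulator channel, was at 32.8 CPM in MCC, 24.9 in BM, 15.5 in MEF, 14.7 in PB and 5.34 in iPSC. Calhm6, a member of the same family, was at 6.92 CPM in MCC, 5.09 in PB, 3.17 in BM, 0.918 in iPSC and 0.116 in MEF, so that MCC, PB and BM were the high libraries. It was 59.9-fold (25.4 to 186) higher in MCC than in MEF. Panx2 and Panx3 were below 1 CPM in all 5 libraries, Calhm3 and Calhm4 had reads in iPSC alone (6 and 1), and Calhm5 was between 0 and 3.89 CPM. Of the 8 pannexin and CALHM genes, 3 reached 5 CPM in MCC or MEF; 1 was higher by the 4-fold rule and 2 were neither.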
